A study of Mus musculus with 4 samples.

Results

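Cyclic nucleotide phosphodiesterases are the enzymes that break down the signalling nucleotides cAMP and cGMP. The 9 genes described here are Pde5a, Pde3b, Pde2a, Pde4a, Pde4b, Pde4d, Pde7a, Pde7b and Pde8a, taken by name, with every probe set that the platform annotation gives to one of them alone. This gave 28 of the 45101 probe sets on the array, and 9 of the 18193 genes that have such a probe set. The members were chosen by name with the Nrp1-positive minus Nrp1-negative differences of these same arrays in view. Their differences are therefore given as a description, and their p-values are no test.

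The study compared splenic regulatory T cells, CD4+ Foxp3+ cells that hold immune responses in check, according to whether they carried Nrp1 (neuropilin-1, a coreceptor at the cell surface). RNA came from sorted cells of Balb/c Foxp3 GFP mice, which carry a green fluorescent reporter of Foxp3, and was read on 1-colour Affymetrix arrays. There were 2 Nrp1-positive arrays (mice of 4 to 6 weeks) and 2 Nrp1-negative arrays, numbered replicates 1 and 2 in each group. Nrp1-negative replicate 2 has the same age range, and Nrp1-negative replicate 1 is given as 4 to 8 weeks. The labels do not state that arrays of one group had different animals or cultures behind them, so spreads and p-values measure only the differences between these arrays, which may in part be technical.

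Nrp1-negative replicate 1 was placed by its title, while its source name and cell type read as positive. Its Nrp1 intensity was 339, and that of Nrp1-negative replicate 2 was 1223, against 9344 and 7745 in Nrp1-positive replicates 1 and 2 (all intensities scaled to one trimmed mean). The replicate number moved with the deposited scale, at a trimmed mean of 500.003 on both arrays numbered 1 and 150.001 on both numbered 2. Over the 10200 genes tested, correlations were 0.980 and 0.984 within a replicate number and 0.956 and 0.941 within the Nrp1-positive and Nrp1-negative groups, and genes are not independent replicates. Values are therefore given within each replicate number as well as over the groups. Xist, the RNA that coats the inactive X chromosome, stood at 83.2 and 13630 in Nrp1-positive replicates 1 and 2 and at 4083 and 13058 in Nrp1-negative replicates 1 and 2, so Xist differed between the arrays of each group and also between the 2 arrays numbered 1. Same-numbered arrays are therefore not known to be a pair. Of the 8 T cell and regulatory T cell markers, 7 lay above the filter on dim probe sets described below. The exception was Foxp3 itself, at 2.16 and 19.9 in Nrp1-positive and 4.45 and 36.4 in Nrp1-negative arrays, so the Foxp3 sort could not be checked from its RNA.

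As background, each phosphodiesterase family has its own preference. Pde5a hydrolyses cGMP. Pde2a hydrolyses both nucleotides and its breakdown of cAMP is raised by cGMP, while Pde3b takes cAMP as its main substrate and is inhibited by cGMP. The Pde4, Pde7 and Pde8 enzymes are specific for cAMP. In regulatory T cells cAMP is known to be high and to take part in suppression, and Foxp3 is known to repress Pde3b.

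RefSeq promoter windows (GRCm38.p6, from 250 bases before to 50 after a transcript start) were found for 7 of the 9 genes, 16 windows in all, with Pde3b and Pde7a the others. Pde5a and Pde4b were the genes with several probe sets that passed the filter described below and lay lower in Nrp1-positive cells. Shown are the Pde5a window and the 2 of 4 Pde4b windows that held a match to any of 4 motifs. Matches on both strands are in capitals. The motifs were the cAMP response element TGACGTCA, its core TGACG (which any match to the element holds), the forkhead core TAAACA and the GC box GGGCGG. The Pde5a window lies at chr3:122728908-122729207 (plus strand), and the Pde4b windows at chr4:102421305-102421604 and chr4:102569810-102570109 (plus strand).
Pde5a: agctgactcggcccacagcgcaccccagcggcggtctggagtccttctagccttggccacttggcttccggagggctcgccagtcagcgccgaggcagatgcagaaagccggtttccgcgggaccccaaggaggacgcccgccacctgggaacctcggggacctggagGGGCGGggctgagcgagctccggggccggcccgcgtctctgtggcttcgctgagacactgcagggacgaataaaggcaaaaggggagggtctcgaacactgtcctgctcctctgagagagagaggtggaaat
Pde4b, upstream start: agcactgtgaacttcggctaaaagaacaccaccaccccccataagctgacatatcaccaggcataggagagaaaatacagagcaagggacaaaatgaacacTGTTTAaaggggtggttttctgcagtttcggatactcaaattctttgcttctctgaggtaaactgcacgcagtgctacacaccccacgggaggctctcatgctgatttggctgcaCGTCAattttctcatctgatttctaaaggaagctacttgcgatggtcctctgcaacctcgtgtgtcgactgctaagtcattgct
Pde4b, next start: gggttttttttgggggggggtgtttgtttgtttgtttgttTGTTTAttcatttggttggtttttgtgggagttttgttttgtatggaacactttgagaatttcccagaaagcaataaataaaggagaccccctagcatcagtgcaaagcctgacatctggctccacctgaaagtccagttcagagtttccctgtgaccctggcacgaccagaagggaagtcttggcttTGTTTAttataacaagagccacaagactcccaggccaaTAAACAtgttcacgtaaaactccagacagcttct
The Pde5a window was GC-rich, at 66.3% G or C and 23 CpG dinucleotides, against medians of 52.7% and 7 over all 32851 windows. It held 1 GC box, which 35.66% of all windows hold, and no match to the other motifs. The Pde4b windows shown were poorer in G and C, at 47.0% and 43.3%. The upstream one held 1 forkhead core and 1 TGACG, and the next one 3 forkhead cores. The other 2 Pde4b windows, at chr4:102587308-102587607 and chr4:102589593-102589892, held none of the 4 motifs. Over all 16 member windows, 3 held a forkhead core (13.44% of all windows do), 4 held TGACG (20.81%), 5 held a GC box and 0 held the full cAMP response element (1.79%). A match is a description of these letters only.

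Of the 28 probe sets, 18 passed the filter on dim ones and 10 did not, which left 7 of the 9 genes to test (Pde4a and Pde7b had none). Pde5a had the largest difference of these 7 genes with all 4 arrays grouped by title. At the Pde5a probe set with the highest mean, 1458341_x_at, intensities were 60.8 and 46.2 in Nrp1-positive replicates 1 and 2, against 221 and 184 in Nrp1-negative replicates 1 and 2. Both Nrp1-positive arrays were below both Nrp1-negative arrays. In bulk samples such as these, fewer cells with a transcript and less of it per cell cannot be told apart. Group means were 53.5 ± 10.3 in the Nrp1-positive samples and 203 ± 26.1 in the Nrp1-negative ones (SD, n = 2 each). Differences below subtract the Nrp1-negative from the Nrp1-positive value on the scale of log2(intensity + 18.3), a pseudocount that makes the difference of a dim gene smaller. On that scale Pde5a differed by −1.62, or 3.08-fold lower in Nrp1-positive cells, and by −1.60 in replicate 1 and −1.65 in replicate 2. The size depends on the pseudocount, being −1.91 with a pseudocount of 1 unit and −1.12 with one of the mean array median.

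The other Pde5a probe sets gave 1 like result and 1 that depended on the replicate. Probe set 1455970_at had 17.5 and 39.4 in Nrp1-positive replicates 1 and 2, against 105 and 211 in Nrp1-negative ones, differing by −1.78 and −1.99. Probe set 1460118_at had 39.9 and 36.3 in Nrp1-positive arrays, against 115 and 37.0 in Nrp1-negative arrays, so it differed by −1.19 in replicate 1 and by −0.02 in replicate 2. It was dim, at percentile 46.1 of mean level, where probe sets under percentile 50 were not tested. Probe set 1455970_at lay just inside that limit at percentile 50.3, and 1458341_x_at at percentile 56.0. The suffix x marks probe sets that may also bind other transcripts, and Pde5a was dim. Both probe sets that passed did so through the Nrp1-negative arrays alone, since their Nrp1-positive values lay below the array medians of 76.4 (replicate 1) and 71.1 (replicate 2) and their Nrp1-negative values above those of 77.8 and 67.4. When Nrp1-negative replicate 1, the array with conflicting labels, was moved to the Nrp1-positive group, Pde5a differed by −0.92, and the cause was not tested.

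**Figure D1:**
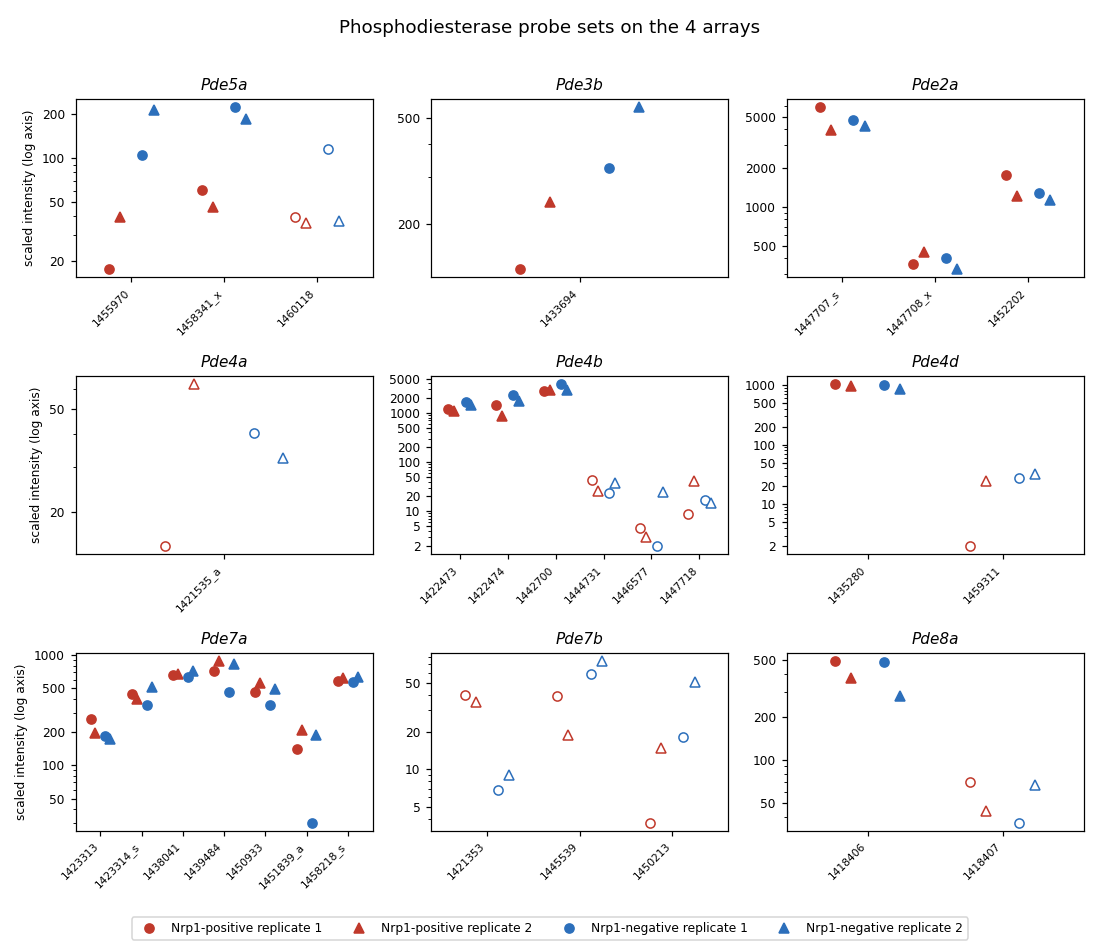
Scaled intensity (log axis, a different range in each panel) of the 28 phosphodiesterase probe sets on each array, with Nrp1-positive arrays in red to the left of Nrp1-negative arrays in blue, circles for replicate 1, triangles for replicate 2 and open symbols for probe sets below the filter. Both red points lie below both blue points in Pde3b and in the Pde5a probe sets with filled symbols, while the filled symbols of Pde2a, Pde4d and Pde8a have red and blue points that overlap.

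Pde3b was the other member with a large difference, and it lay in the same direction. Its only probe set had 135 and 241 in Nrp1-positive replicates 1 and 2, against 323 and 547 in Nrp1-negative replicates 1 and 2, and the groups did not overlap. Means were 188 ± 75.0 in the Nrp1-positive samples and 435 ± 158 in the Nrp1-negative ones (SD, n = 2 each). The difference was −1.14, or 2.20-fold lower in Nrp1-positive cells, and was nearly equal in the replicates, at −1.15 and −1.12. Pde3b also differed between replicate numbers, being 0.76 higher in replicate 2 than in replicate 1 among Nrp1-positive arrays and 0.73 higher among Nrp1-negative arrays. Pde3b is a gene that Foxp3 is known to repress, and of the others on a list of such genes (Il2, Il7r, Satb1 and Ptpn22) 3 were tested. The median difference of these 3 was −0.07, at 0.19 in replicate 1 and −0.24 in replicate 2, and 0 passed the test with or without the block described below. The share of all genes tested that passed was 0% without the block, and 0.167% lower and 0.284% higher with it. Il7r, which encodes a subunit of the IL-7 receptor, differed by 0.46, with an adjusted p = 0.135 in limma with the block, and Satb1, a chromatin organiser, by −0.40, with an adjusted p = 0.281. With the block and quantile normalisation Il7r passed, at an adjusted p = 0.0240 in limma. Within replicates 1 and 2 Il7r differed by 0.54 and 0.38, and Satb1 by −0.57 and −0.24. Leaving out 1 array without the block mixes replicate number with group. Done in turn, it gave Il7r from 0.17 (without Nrp1-positive replicate 1) to 0.75 (without Nrp1-positive replicate 2). It gave Satb1 from −0.63 (without Nrp1-negative replicate 2) to −0.17 (without Nrp1-negative replicate 1).

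Among the enzymes specific for cAMP, Pde4b had lower values in Nrp1-positive cells at each of its bright probe sets, by less than Pde5a or Pde3b. Probe set 1422474_at had 1475 and 863 in Nrp1-positive replicates 1 and 2, against 2266 and 1706 in Nrp1-negative ones, differing by −0.61 and −0.97. Probe set 1422473_at had 1219 and 1090 in Nrp1-positive arrays, against 1648 and 1469 in Nrp1-negative arrays, and differed by −0.43 and −0.42. The probe set with the highest mean, 1442700_at, had 2747 and 2852 in Nrp1-positive arrays, against 3866 and 2964 in Nrp1-negative arrays. It differed by −0.49 in replicate 1 and by −0.06 in replicate 2, a mean of −0.27, and by 0.07 when Nrp1-negative replicate 1 was moved to the Nrp1-positive group. Left out in turn, Nrp1-negative replicates 1 and 2 gave −0.082 and −0.46 for that probe set. The groups did not overlap at any of the 3 probe sets. The other 3 Pde4b probe sets lay at percentiles 7.52 to 37.5, below the filter, and each differed in opposite directions in the replicates.

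Pde4d, a close relative of Pde4b, differed little at the probe set that passed the filter. Its bright probe set had 1032 and 948 in Nrp1-positive replicates 1 and 2, against 987 and 843 in Nrp1-negative ones, a mean difference of 0.12 with overlapping groups, which became 0.23 and 0.0030 when Nrp1-negative replicates 1 and 2 were left out in turn. Its other probe set, at percentile 26.8, had 2.04 and 24.9 in Nrp1-positive arrays, against 27.6 and 32.6 in Nrp1-negative arrays. That dim probe set differed by −1.18 in replicate 1 and −0.24 in replicate 2 without overlap of the groups, and was not tested. Pde4a had 1 probe set, below the filter at percentile 39.4, with 14.8 and 62.7 in Nrp1-positive arrays, against 40.4 and 32.5 in Nrp1-negative arrays. These Pde4a values differed by −0.83 in replicate 1 and 0.67 in replicate 2, and the gene was not tested.

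Pde7a was represented by 7 probe sets, which all passed the filter and gave mean differences from −0.02 to 0.93. The brightest, 1439484_at, had 720 and 893 in Nrp1-positive replicates 1 and 2, against 469 and 838 in Nrp1-negative ones, with a mean difference of 0.34 that was −0.06 when Nrp1-negative replicate 1 was left out and −0.31 when it was moved to the Nrp1-positive group. The value of 0.93 came from 1451839_a_at, which had 30.3 in Nrp1-negative replicate 1 against 189 in Nrp1-negative replicate 2, and 141 and 211 in Nrp1-positive arrays. Probe sets 1438041_at and 1458218_s_at, at 659 and 678 and at 590 and 616 in Nrp1-positive arrays, against 635 and 722 and 577 and 635 in Nrp1-negative arrays, differed by −0.02 and −0.0044. The groups did not overlap at 1 of the 7, 1423313_at, which had 266 and 196 in Nrp1-positive arrays, against 185 and 173 in Nrp1-negative arrays.

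Pde7b had 3 probe sets, all below the filter, and they disagreed in direction without overlap of the groups. Probe set 1421353_at had 39.7 and 34.7 in Nrp1-positive arrays, against 6.83 and 9.04 in Nrp1-negative arrays. Probe set 1445539_at had 39.0 and 18.9 in Nrp1-positive arrays, against 58.8 and 75.0 in Nrp1-negative arrays. Probe set 1450213_at had 3.73 and 14.9 in Nrp1-positive arrays, against 18.3 and 51.0 in Nrp1-negative arrays, so no direction can be given for Pde7b. Pde8a, whose enzyme binds cAMP with high affinity, had 496 and 377 in Nrp1-positive arrays, against 483 and 280 in Nrp1-negative arrays at its brighter probe set. The groups overlapped, the difference was 0.22, and it became 0.60 and −0.15 when Nrp1-negative replicates 1 and 2 were left out in turn. The dimmer Pde8a probe set differed by 0.70 in replicate 1 and −0.46 in replicate 2.

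Pde2a, which acts on both nucleotides, had overlapping groups at all 3 of its probe sets. The probe set 1447707_s_at had 5914 and 3915 in Nrp1-positive replicates 1 and 2, against 4724 and 4194 in Nrp1-negative ones. Its difference was 0.11, at 0.32 in replicate 1 and −0.10 in replicate 2, and −0.18 without Nrp1-positive replicate 1. Probe set 1452202_at had 1775 and 1210 in Nrp1-positive arrays, against 1284 and 1121 in Nrp1-negative arrays, a mean difference of 0.29. Probe set 1447708_x_at had 359 and 443 in Nrp1-positive arrays, against 402 and 329 in Nrp1-negative arrays, a mean difference of 0.13.

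**Figure D2:**
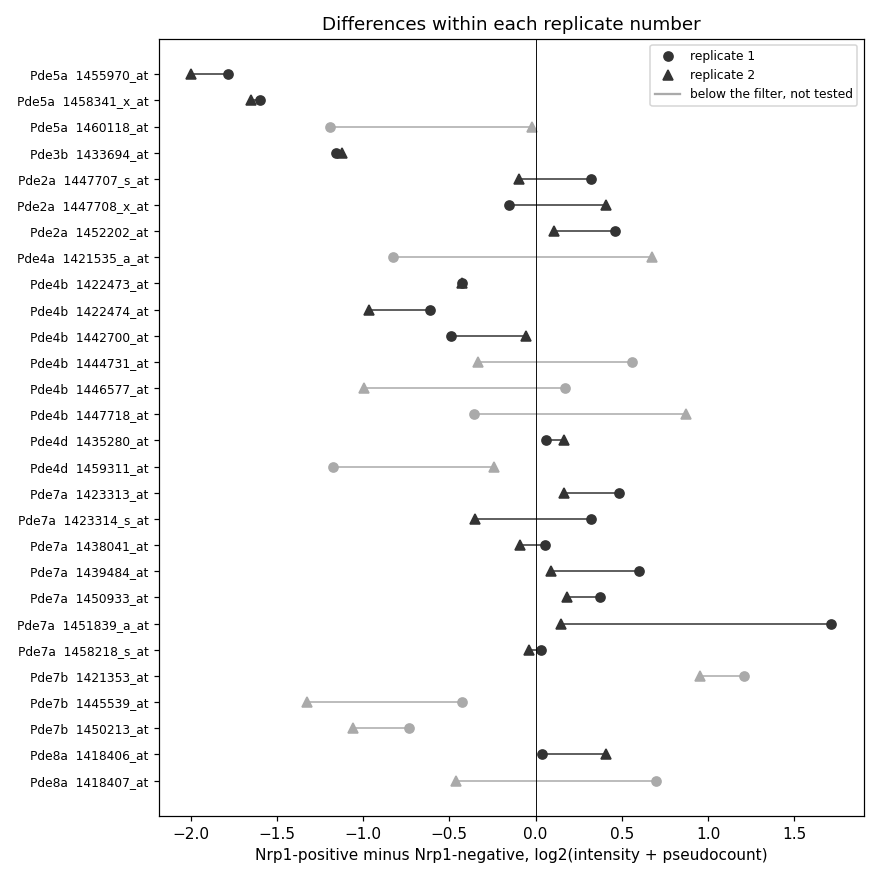
Difference between Nrp1-positive and Nrp1-negative arrays (log2, horizontal axis) within replicate 1 (circles) and replicate 2 (triangles) for each of the 28 probe sets, with a line joining the replicates and grey for probe sets below the filter. Of the 18 probe sets that passed, 6 lie left of 0 in both replicates (Pde5a, Pde3b and Pde4b), 7 right of 0 in both, and 5 on opposite sides.

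Set against the other members, each by its probe set with the highest mean, Pde5a stood apart from all but Pde3b by more than 1 log2 unit. The Pde5a difference was lower than that of Pde3b by −0.48, at −0.44 in replicate 1 and −0.53 in replicate 2. It was lower than that of Pde4b by −1.35, of Pde2a by −1.74, of Pde4d by −1.74, of Pde8a by −1.85 and of Pde7a by −1.97. In each replicate number the gap to these 5 genes lay between −1.11 and −2.20. The order of Pde5a and Pde3b reversed under some choices of arrays. Without Nrp1-positive replicate 2, Pde5a differed by −1.48 and Pde3b by −1.52. With Nrp1-negative replicate 1 moved to the Nrp1-positive group, Pde5a differed by −0.92 and Pde3b by −1.24. The gaps depend on the probe set taken. Mean differences were −1.89 (1455970_at) and −0.61 (1460118_at) at the other Pde5a probe sets. They were −0.79 (1422474_at) and −0.43 (1422473_at) at the other Pde4b probe sets that passed the filter. No test was made of these gaps, since the members were chosen on them.

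In the fit over all genes (limma, two-sided, Benjamini-Hochberg adjustment at 0.05), 0 of 10200 genes were lower and 0 higher in Nrp1-positive cells without a block, a share of 0%, and unadjusted p-values lay below 0.05 for 147. Of the 7 members tested, Pde5a and Pde3b were among those 147, each with an adjusted p of 0.9998. With the replicate number as a block, 17 genes (0.167%) were lower and 29 (0.284%) higher, and 878 had an unadjusted p below 0.05. None of the 7 members passed there, and 2 of them, again Pde5a and Pde3b, were among the 878. The Pde5a adjusted p in that limma fit was 0.0766 (SE 0.31), and that of Pde3b was 0.0637 (SE 0.21). After quantile normalisation the blocked limma fit called both, Pde5a with an adjusted p of 0.0244 (difference −1.64) and Pde3b with 0.0106 (−1.18). Over all alternatives the adjusted p ranged from 0.0244 to 1 for Pde5a and from 0.0106 to 1 for Pde3b. With every probe set fitted on its own and the block, 43 of 18837 (0.228%) were lower and 55 (0.292%) higher. Among the 18 member probe sets that passed the filter 3 were lower, namely 1422474_at of Pde4b and both of Pde5a, which had entered only through their Nrp1-negative values, and 0 were higher. Groups did not overlap, with Nrp1-positive lower, in 3 of the 7 members (Pde5a, Pde3b and Pde4b) and in 9.15% of all genes tested, and with Nrp1-positive higher in 0 of the 7 and in 12% of all genes. Nothing is read from these counts, because the rule used this contrast. An exact permutation test of 2 arrays against 2 cannot give a p below 0.333.

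**Figure D3:**
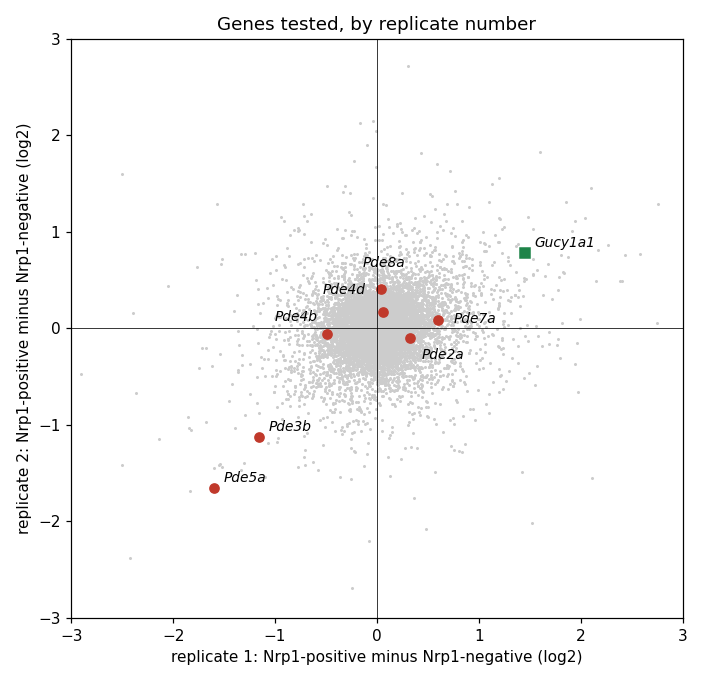
Difference between Nrp1-positive and Nrp1-negative arrays (log2) in replicate 1 (horizontal axis) and replicate 2 (vertical axis), with each grey point a tested gene, red circles the 7 tested phosphodiesterase members and a green square Gucy1a1. Pde5a and Pde3b lie near the diagonal at the lower left, the other members lie within 0.6 of 0 on both axes, and 2 genes fall outside the plotted range of −3 to 3.

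The 5 tested genes with values most like Pde5a, by Euclidean distance over the 4 arrays after each gene's mean was removed, were Lag3 (0.191), Slc16a5 (0.198), Adh1 (0.256), Igfbp4 (0.291) and 4930486L24Rik (0.359). Lag3, an inhibitory receptor gene, had 320 and 261 in Nrp1-positive replicates 1 and 2, against 1189 and 877 in Nrp1-negative ones. Igfbp4, an insulin-like growth factor binding protein gene, had 3056 and 2302 in Nrp1-positive arrays, against 7587 and 6073 in Nrp1-negative arrays. These 5 genes were picked for their likeness on these arrays, so their differences get no test.

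On the side of synthesis, the gene with the largest difference encodes the alpha subunit of soluble guanylyl cyclase, Gucy1a1, the enzyme that makes cGMP when it binds nitric oxide. Its brightest probe set had 420 and 503 in Nrp1-positive replicates 1 and 2, against 141 and 285 in Nrp1-negative ones, so the groups did not overlap. It differed by 1.12, at 1.46 in replicate 1 and 0.78 in replicate 2, with an adjusted p = 0.0973 in limma with the block, and 0.0245 with the block and quantile normalisation. The difference was 0.66 when Nrp1-negative replicate 1 was left out and 0.13 when it was moved to the Nrp1-positive group. The other 2 Gucy1a1 probe sets were dimmer and differed by 0.57 and −0.14, and averaging the gene's probe sets that passed gave 0.49. Gucy1b1, its beta subunit, had 144 and 117 in Nrp1-positive arrays, against 69.9 and 118 in Nrp1-negative arrays, a difference of 0.44 that was 0.88 in replicate 1 and −0.0025 in replicate 2, and 0.13 when Nrp1-negative replicate 1 was left out. Of 10 genes on the list of guanylyl cyclases and nitric oxide synthases 3 were tested, with a median of 0.44, and 0 passed with or without the block. The share of all genes tested that passed was 0% without the block, and 0.167% lower and 0.284% higher with it.

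The pathway lists together also hold the guanylyl cyclase, Foxp3-repressed and other phosphodiesterase lists, so their pooled values are not of cAMP genes alone. Of 97 genes 60 were tested, 0 passed without the block and 0 with it, and 2 and 9 had an unadjusted limma p below 0.05. Of all 10200 genes, 0% passed without the block, and 0.167% lower and 0.284% higher with it. Unadjusted, 147 and 878 of them had a limma p below 0.05. Nothing is read from these counts. The median difference of the 60 pathway genes was 0.09, against 0.0039 over all genes tested, and it was 0.09 in replicate 1 and 0.07 in replicate 2. Adenylyl cyclases, which make cAMP, had 6 of 10 tested and a median of −0.10, with Adcy9 at −0.56 and Adcy3 at 0.22. Adcy9 had 98.0 and 105 in Nrp1-positive arrays, against 223 and 111 in Nrp1-negative arrays, so Nrp1-negative replicate 1 stood apart, and the difference was −0.10 when that array was left out. The Adcy3 difference was 0.65 when the gene's probe sets were averaged. The list of Gs and Gi proteins, receptors and cAMP export had 9 of 14 tested and a median of 0.07. Ptger2, a prostaglandin E2 receptor that raises cAMP, had 1571 and 1236 in Nrp1-positive arrays, against 845 and 985 in Nrp1-negative arrays, a difference of 0.60 (adjusted p = 0.190 by blocked limma). Ptgir, the prostacyclin receptor, had 243 and 386 in Nrp1-positive arrays, against 161 and 240 in Nrp1-negative arrays, a difference of 0.59 (adjusted p = 0.453 by blocked limma). The groups did not overlap at either receptor. Within replicates 1 and 2 Ptger2 differed by 0.88 and 0.32, and Ptgir by 0.54 and 0.65. When Nrp1-negative replicate 1 was moved to the Nrp1-positive group the differences were 0.26 for Ptger2 and 0.0469 for Ptgir. Over arrays left out in turn that of Ptgir ran from 0.28 (without Nrp1-positive replicate 2) to 0.91 (without Nrp1-positive replicate 1).

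The remaining lists hold the genes that act after cAMP. The cAMP and cGMP effectors had 8 of 14 tested and a median of 0.02, with Pkig, an inhibitor of protein kinase A, at −0.40 and Prkar1b, a regulatory subunit of that kinase, at 0.34. Pkig differed by −0.54 in replicate 1 and −0.27 in replicate 2. Over arrays left out in turn it ran from −0.79 (without Nrp1-positive replicate 2) to −0.024 (without Nrp1-positive replicate 1). The A-kinase anchoring proteins had 10 of 11 tested and a median of 0.11, with Akap2 at 0.43 and Akap7 at 0.30. Akap2 differed by 0.54 in replicate 1 and 0.32 in replicate 2. Over arrays left out in turn it ran from 0.15 (without Nrp1-positive replicate 1) to 0.71 (without Nrp1-positive replicate 2). The CREB family and its coactivators had 7 of 8 tested and a median of 0.07, with Creb1 and Crem at 0.24 each. The Creb1 difference was 0.095 with its probe sets averaged. Crem differed by 0.24 in replicate 1 and 0.23 in replicate 2. Over arrays left out in turn it ran from 0.057 (without Nrp1-negative replicate 1) to 0.42 (without Nrp1-negative replicate 2). Of 11 cAMP-responsive target genes 10 were tested, with a median of 0.22. Nr4a2, a nuclear receptor gene, had 262 and 188 in Nrp1-positive replicates 1 and 2, against 176 and 78.3 in Nrp1-negative ones, a difference of 0.81. It was 0.53 in replicate 1 and 1.10 in replicate 2, and 0.38 with the gene's probe sets averaged. It was 0.31 when Nrp1-negative replicate 2 was left out and 1.32 when Nrp1-negative replicate 1 was. Fosb, a gene of the AP-1 family, had 115 and 31.1 in Nrp1-positive arrays, against 208 and 64.1 in Nrp1-negative arrays, a difference of −0.75. Fosb differed by −0.76 in replicate 1 and −0.74 in replicate 2. Its replicate 2 minus replicate 1 difference was −1.43 among Nrp1-positive and −1.46 among Nrp1-negative arrays. Leaving out 1 array, which mixes replicate number with group, gave −0.022 without Nrp1-negative replicate 1 and −0.035 without Nrp1-positive replicate 2. It gave −1.48 without Nrp1-negative replicate 2 and −1.47 without Nrp1-positive replicate 1. Among other phosphodiesterase genes 4 of 15 were tested, with a median of 0.0010, with Pde6h at −0.26 and Pde11a at 0.16. Counts per list by direction were 0 higher and 0 lower in each of these lists by either fit. Of all genes tested, 0% passed without the block, and 0.167% lower and 0.284% higher with it.

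**Figure D4:**
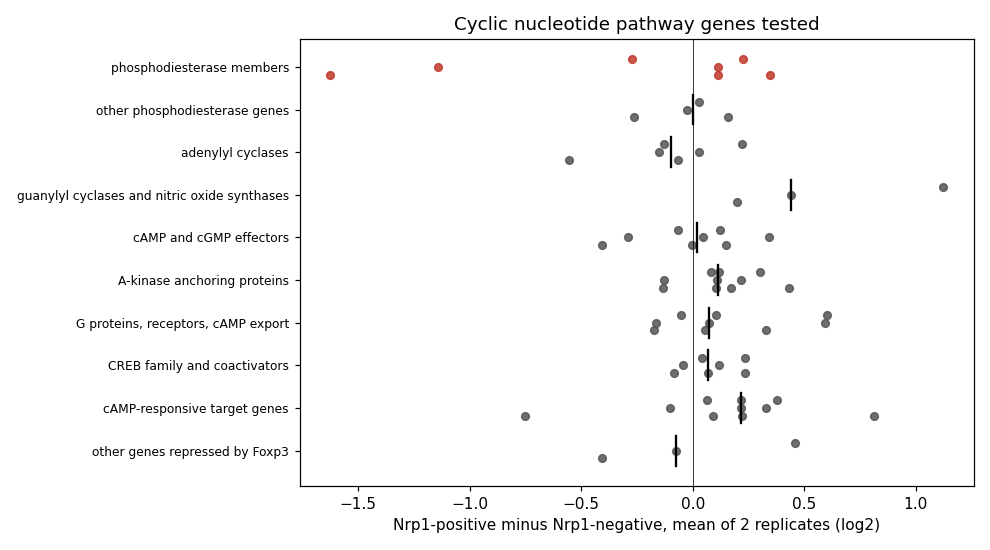
Mean difference between Nrp1-positive and Nrp1-negative arrays (log2, horizontal axis) of each tested gene in the phosphodiesterase family (red) and in 9 lists of pathway genes (grey), with a black line at the median of each list. Pde5a and Pde3b lie at −1.62 and −1.14, beyond all 60 grey points, which run from −0.75 to 1.12.

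Pde5a is known to be abundant in platelets and smooth muscle, so markers of other cells were summed on each array. Of 7 platelet and megakaryocyte markers, all on the array and 2 above the filter, the summed intensity was 570 and 433 in Nrp1-positive replicates 1 and 2, against 485 and 479 in Nrp1-negative ones. For 8 smooth muscle, stromal and endothelial markers, of which 2 passed the filter, the sums were 1027 and 1231 in Nrp1-positive arrays, against 1056 and 1015 in Nrp1-negative arrays. Both sums overlapped between the groups, and their largest terms were Itga2b for platelets and Pecam1 for endothelium. Pf4, a platelet chemokine gene above the filter, had 64.2 and 68.3 in Nrp1-positive arrays, against 78.0 and 104 in Nrp1-negative arrays, without overlap. Gp5, below the filter, lay the same way without overlap, at 24.1 and 51.9 in Nrp1-positive arrays, against 66.5 and 75.4 in Nrp1-negative arrays. Gp1bb, also below it, lay the other way without overlap, at 114 and 84.0 in Nrp1-positive arrays, against 31.7 and 51.1 in Nrp1-negative arrays. Acta2, the smooth muscle actin gene and above the filter, had 254 and 204 in Nrp1-positive arrays, against 186 and 244 in Nrp1-negative arrays, which overlap. The part of platelet RNA in the Pde5a difference was not tested. B cell markers (4 of 5 on the array) summed to 487 and 649 in Nrp1-positive arrays, against 412 and 564 in Nrp1-negative arrays, and CD8 T and NK cell markers (5 of 5) to 1004 and 1538, against 619 and 1423.

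The myeloid sum moved with the replicate number, and the erythroid sum with the Nrp1 group. The sum of 6 myeloid markers was 2396 in Nrp1-positive replicate 1 and 1637 in Nrp1-negative replicate 1, and 11008 in Nrp1-positive replicate 2 and 11884 in Nrp1-negative replicate 2. It was thus higher in replicate 2, as Pde3b was, and its part in the Pde3b level was not tested. The sum of the 3 erythroid markers on the array (of 5 listed, 1 above the filter) was 79.0 and 109 in Nrp1-positive arrays, against 161 and 223 in Nrp1-negative arrays. These groups did not overlap and lay in the direction of Pde5a and Pde3b, and the part of erythroid RNA in those differences was not tested.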

How the data were processed

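The authors deposited linear intensities, 1 per probe set, and name MAS5 in the submitters' processing notes. RNA was extracted with Trizol and labelled with biotin, per the labels. The version and settings of MAS5 and its detection calls are not used here. All values of the 4 arrays were brought to one trimmed mean (500, 2% of probe sets left out at each end) and taken as log2(intensity + 18.3), the pseudocount being 0.25 of the mean array median. Of 45101 probe sets, 64 were controls, 34945 had 1 gene, 932 several and 9160 were unnamed here. The upper part by mean level, from percentile 50, was kept (22519 probe sets). Where several kept probe sets named one gene, the one with the highest mean stood for it, giving 10200 genes.

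Groups came from the titles. Limma 3.58.1 (R 4.3.3, mean-variance trend) compared them over all genes, without a block as the planned test and with the replicate number as a block as an alternative, which leaves 1 residual degree of freedom per gene beside 7.83 from the prior. Deviations from the group means correlated at 0.729 between same-numbered arrays. With 2 pairs this is a hint from the data, not a stated pairing, and Xist differed between the arrays numbered 1. Members and gene lists were chosen with earlier results of these data known. Named genes are all members, the 2 of each pathway list with the largest absolute difference, and the 5 nearest to Pde5a. Xist, Foxp3 and single markers of other cells were named after their values were seen. Promoters are from RefSeq, and drawings were made with matplotlib 3.10.9.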

Additional observations from a re-analysis of the deposited data

How the results depend on the processing

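Pde5a and Pde3b were lower in Nrp1-positive cells under every alternative run, from −1.91 to −0.92 and from −1.52 to −0.76, and Pde5a did not pass the filter at percentile 60. Without a block no gene was called, save 1 higher without Nrp1-negative replicate 2 and 1 lower without Nrp1-positive replicate 2 (counts ran from 0 to 1 over arrays left out). With the replicate number as a block, 29 genes were higher and 17 lower, and 0 with the block and no mean-variance trend, where 872 had an unadjusted p below 0.05. The block with quantile normalisation called 85 and 54, among them Pde5a (−1.64), Pde3b (−1.18) and 2 pathway genes, Gucy1a1 and Il7r. Alternatives chosen after seeing the data, all with the block, called 55 and 43 with every probe set fitted (Pde5a at −1.62), 31 and 20 with no filter, and 41 and 30 with a pseudocount of 1 unit (Pde3b at −1.21). Without a block, leaving out an array mixes replicate number with group, and with the block no array can be left out, as no residual degree of freedom remains.

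Other named genes turned in direction when 1 array was left out, over ranges of −0.18 to 0.41 for Pde2a, −0.0623 to 0.75 for Pde7a, −0.15 to 0.60 for Pde8a, −0.15 to 0.75 for Akap7, −0.0485 to 0.49 for Adcy3, −0.24 to 0.92 for Prkar1b, −0.0326 to 0.51 for Creb1, −0.53 to 0.0047 for Pde6h and −0.31 to 0.63 for Pde11a. Compared within each replicate number, Pde7a, Pde8a, Adcy3, Prkar1b, Creb1 and Pde6h kept the same direction, and Pde2a, Akap7 and Pde11a did not. The label-conflicted array, Nrp1-negative replicate 1, had the lowest Nrp1 intensity of the 4 arrays (339), on the side its title gives. With it moved to the Nrp1-positive group all the same, Pde4b was 0.0724, Pde7a −0.31, Akap7 −0.40, Adcy9 0.23, Fosb 0.47, Creb1 −0.20, Crem −0.0821, Gucy1b1 −0.12, Satb1 0.0368 and Pde6h 0.13. The cause was not tested, and 2 arrays a group limit the precision.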
